A study of Danio rerio with 13 samples.

Results

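The 6 genes of the mitochondrial genome that encode subunits of respiratory chain complexes III, IV and V were followed across zebrafish ventricles: mt-co1 (ENSDARG00000063905), mt-co2 (ENSDARG00000063908) and mt-co3 (ENSDARG00000063912) of complex IV, mt-cyb (ENSDARG00000063924) of complex III, and mt-atp6 (ENSDARG00000063911) and mt-atp8 (ENSDARG00000063910) of complex V. They were chosen by name, as all protein-coding genes of that genome outside complex I. The rule used no values, but it was made with earlier results of these data known. They are 6 of the 32520 genes in the count table, all 6 were among the 6138 genes tested, and 5 of the 6 had counts in every sample.

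The samples were ventricles of 6 vegfc(hy-/-);vegfd(-/-) mutant and 7 vegfc(+/+):vegfd(+/+) control zebrafish, all cryoinjured, that is, injured by freezing the ventricle, and examined 6 months later. The hy allele of vegfc is hypomorphic, so that mutants may keep some vegfc function, and the vegfd allele is a null. Each sample was 1 heart, from which 12 sections of 8 μm were cut after fixation in paraformaldehyde and embedding, and RNA was sequenced after depletion of ribosomal RNA with a kit made for human, mouse and rat. The labels do not say which mutant hearts regenerated, so the mutants were kept as 1 group, and the age of the fish is not given in the sources used here.

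Mitochondria keep a small circular genome of their own, transcribed as long precursor RNAs that are cut apart largely at the transfer RNAs lying between the genes. Its protein-coding genes all encode core subunits of the respiratory chain, which work only when assembled with many subunits encoded in the nucleus. Complex III passes electrons from ubiquinol to cytochrome c, complex IV passes them on to oxygen, and complex V uses the proton gradient so formed to make ATP. The heart depends heavily on this route to ATP, and transcripts of these genes are among the most abundant in cardiomyocytes.

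A single gene, ENSDARG00000087732, named rn7sl1 (the 7SL RNA of the signal recognition particle), took 94.7% to 96.4% of the counts in mutants and 60.8% to 91.5% in controls. Totals were 3575023 to 12972634 counts in mutants and 2123784 to 4291363 counts in controls, and the counts outside rn7sl1 were 171218 to 596616 and 256802 to 1070324. Levels are therefore given as relative abundance, the counts on a gene per 100000 counts outside rn7sl1, beside counts per 1000000 counts (CPM) scaled with TMM, which use all genes. In control 8, 68.0% of the counts outside rn7sl1 fell on 1 further gene, ENSDARG00000090170 (RAB11FIP4), which lowers every other relative abundance in that library. The comparisons of the 6 genes between groups were also made without control 8, whereas the marker, nuclear and complex I lists and the make-up of the counts were not. The tissue label was checked against cardiomyocyte markers: myh7, a cardiac myosin heavy chain, was counted in 13 of 13 samples, the cardiac actin actc1a in 12 and the myosin light chain myl7 in 11. Of the 12 marker symbols 7 were matched. The other matched markers were counted in 12 samples (tpm4a), 9 (cmlc1), 8 (mb) and 3 (tnnc1a).

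The median relative abundance was higher in mutants for 5 of the 6 genes, the exception being mt-atp8, but in each of the 6 genes the groups overlapped. None passed the adjusted threshold by edgeR or by the exact permutation test of relative abundance. By the permutation test mt-atp6 alone had an unadjusted p under 0.05, against 3.7% of all genes tested that were higher in mutants. By edgeR 0 of the 6 had, against 15.2% of all genes tested in either direction. The counts outside rn7sl1 that fell on the 6 genes together made up 0.591% to 4.57% in mutants (median 1.80%) and 0.0563% to 2.48% in controls (median 0.902%). Mutant 2 had the highest share, with 20033 counts (95% Wilson interval 4.50% to 4.63%), and control 8 the lowest, with 603 counts (0.0520% to 0.0610%). These intervals cover counting error only and were far narrower than the spread between hearts. Of all counts, rn7sl1 included, the medians lay the other way round, at 0.0782% in mutants (0.0267% to 0.198%) and 0.0987% in controls (0.0148% to 0.225%). In bulk tissue, fewer cells of a type and less RNA per cell cannot be told apart.

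**Figure D1:**
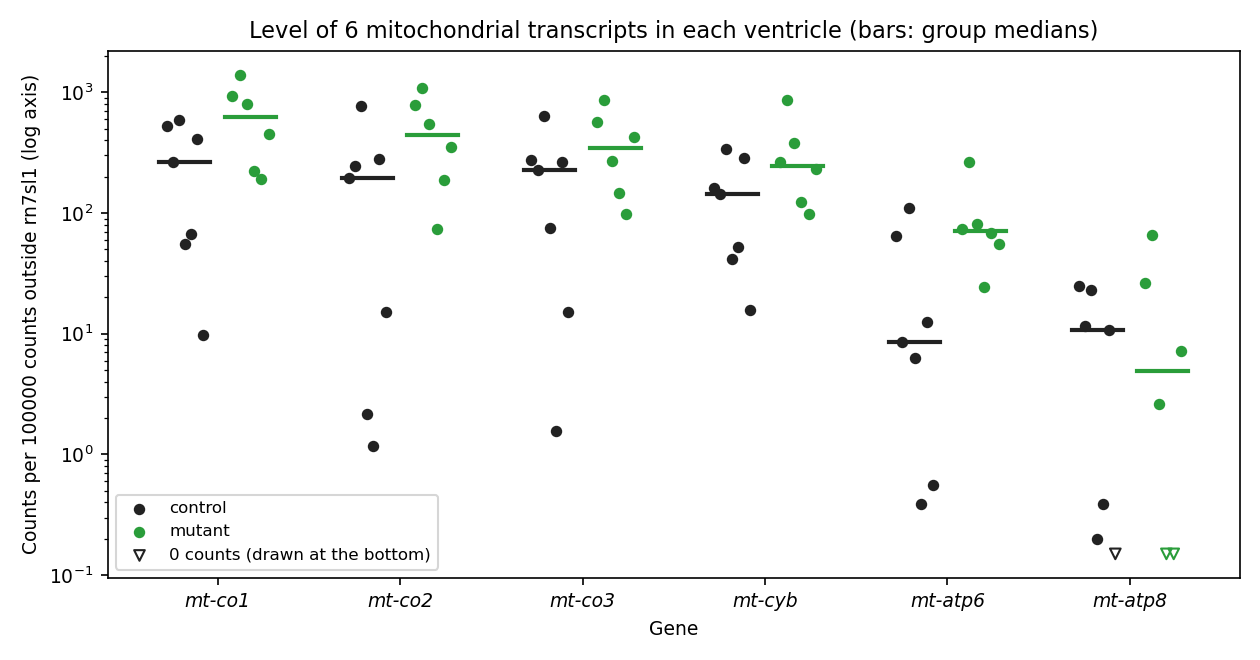
Relative abundance of the 6 mitochondrial transcripts in each ventricle, in counts per 100000 counts outside rn7sl1 on a log axis, for 6 mutants (green) and 7 controls (black). Horizontal bars are group medians and open triangles at the bottom are samples with 0 counts, and in each gene the points of the groups overlap.

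Complex IV, cytochrome c oxidase, has its catalytic core encoded by 3 mitochondrial genes. The subunit encoded by mt-co1 holds the site where oxygen is reduced. Its relative abundance was lowest in mutant 5 at 193, had a median of 625 and was highest in mutant 2 at 1399.7, against 9.81 in control 8, a median of 266 and 594 in control 4. Mutants 1, 2 and 3 exceeded every control, and controls 5, 6 and 8 lay below every mutant, with the others mixed. The means were 667 ± 468 in mutants (SD, n = 6) and 275 ± 240 in controls (SD, n = 7), a ratio of 2.42. On the scaled values the medians were 374 CPM in mutants (87.8 to 1384 CPM) and 156 CPM in controls (28.0 to 421 CPM). The log2 fold change from edgeR was 1.33 (SE 1.13, adjusted p = 0.844 by the quasi-likelihood test). The difference in mean log2 relative abundance was 1.87, a 3.65-fold ratio of geometric means (exact two-sided permutation test over all splits of the 13 ventricles, p = 0.0868, adjusted p = 0.935).

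The subunit encoded by mt-co2 accepts electrons from cytochrome c. Its relative abundance ran from 74.2 in mutant 4 through a median of 447 to 1094 in mutant 2, and in controls from 1.17 in control 6 through a median of 195 to 770 in control 4. The lowest controls rested on very few reads, with 3 counts in control 6 and 11 counts in control 5, while control 4 held 2999 counts. Control 4 exceeded 4 of the 6 mutants, whereas controls 5, 6 and 8 lay below all of them. The means were 507 ± 385 in mutants (SD, n = 6) and 215 ± 272 in controls (SD, n = 7), a ratio of 2.35. The scaled medians were 273 CPM (29.2 to 1082 CPM) and 142 CPM (0.746 to 469 CPM), with an edgeR log2 fold change of 1.40 (SE 1.18, adjusted p = 0.842). The difference in mean log2 relative abundance was 2.96 (exact permutation p = 0.105, adjusted p = 0.935). Leaving out control 4, the highest control, took it to 3.63 (exact permutation p = 0.0455, adjusted p = 0.953). With any other 1 sample left out, the exact permutation p was 0.0732 to 0.184.

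The third core subunit, encoded by mt-co3, lies beside the catalytic pair and carries no metal centre. Its relative abundance was 98.5 in mutant 5, 347 at the median and 871 in mutant 2, against 1.56 in control 6, 228 at the median and 640.2 in control 4. Only mutant 2 exceeded every control, and controls 5, 6 and 8 again lay below every mutant. The means were 396 ± 291 in mutants (SD, n = 6) and 214 ± 221 in controls (SD, n = 7), a ratio of 1.85. The scaled medians were 246 CPM (57.3 to 861 CPM) and 133 CPM (0.995 to 390.0 CPM). Its log2 fold change was 1.03 (SE 1.20, adjusted p = 0.990 by edgeR), and the difference in mean log2 relative abundance was 1.93 (exact permutation p = 0.182, adjusted p = 0.935).

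Cytochrome b, encoded by mt-cyb, is the sole mitochondrially encoded subunit of complex III and carries the sites where ubiquinol is oxidised and ubiquinone reduced. Its relative abundance was 98.3 in mutant 5, 247 at the median and 869 in mutant 2, against 15.6 in control 8, 144 at the median and 341 in control 4. Mutant 2 stood apart from the other mutants, of which the next, mutant 3, was at 379.5. The means were 327 ± 284 in mutants (SD, n = 6) and 149 ± 126 in controls (SD, n = 7), a ratio of 2.19. The scaled medians were 177 CPM (48.8 to 859 CPM) and 84.4 CPM (33.6 to 244 CPM). The edgeR log2 fold change was 1.20 (SE 1.26, adjusted p = 0.964), and it was 0.31 without mutant 2. The difference in mean log2 relative abundance was 1.37 (exact permutation p = 0.113, adjusted p = 0.935).

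Complex V, the ATP synthase, takes a pair of membrane subunits from the mitochondrial genome. The subunit encoded by mt-atp6 forms part of the channel through which protons pass. Its relative abundance was 24.5 in mutant 4, 71.0 at the median and 266 in mutant 2, against 0.389 in control 6, 8.57 at the median and 110 in control 4. All 6 mutants lay above the control median, and 5 of the 7 controls lay below every mutant. Those 5 controls held 1 to 42 counts each, whereas controls 1 and 4 held 267 and 428 counts and fell within the range of the mutants. The means were 95.1 ± 86.3 in mutants (SD, n = 6) and 28.9 ± 42.1 in controls (SD, n = 7), a ratio of 3.29, and the scaled medians were 50.9 CPM (9.66 to 263 CPM) and 6.07 CPM (0.249 to 67.0 CPM). The edgeR log2 fold change was 1.93 (SE 1.53, adjusted p = 0.780). The difference in mean log2 relative abundance was 3.23, a 9.35-fold ratio of geometric means, with an unadjusted p of 0.0274 and an adjusted p of 0.912 by the exact permutation test. Without mutant 2 the unadjusted p was 0.0619, and without control 4 it was 0.00649, both by the exact permutation test.

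The short subunit encoded by mt-atp8 helps to hold the ATP synthase together. It had the fewest counts of the 6 genes, 735 in all, of which 286 were in mutant 2. Its relative abundance was 0 in mutants 4 and 5, 4.92 at the median of the mutants and 65.2 in mutant 2, against 0 in control 8, 10.8 at the median and 24.7 in control 1. A count of 0 allows a relative abundance of up to 1.75 in mutant 4, 0.56 in mutant 5 and 0.28 in control 8, taking 3 counts as the limit. Thus mutants 1 and 2 lay above every control, while 4 of the 6 mutants lay below the control median. The means were 16.9 ± 25.6 in mutants (SD, n = 6) and 10.1 ± 10.7 in controls (SD, n = 7), and the scaled medians were 3.74 CPM (0 to 64.4 CPM) and 6.77 CPM (0 to 19.9 CPM). The log2 fold change was 1.07 (SE 1.79, adjusted p = 0.9999 by edgeR) and was -0.42 without mutant 2. The difference in mean log2 relative abundance was 0.33 (exact permutation p = 0.871, adjusted p = 0.997). No difference in mt-atp8 was detectable with these counts.

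Read against the whole table, 0 of the 6 genes passed the edgeR threshold of an adjusted p under 0.05, which 0.0978% of the 6138 genes tested passed in either direction, and 0 of the 6 had an unadjusted p under 0.05, against 15.2% of all genes tested. DESeq2 called 0 of the 6 as well, and 142 of the 6138 genes tested. By relative abundance, 1 of the 6, mt-atp6, was higher in mutants at an unadjusted p under 0.05 (exact permutation test), against 3.7% of all genes tested (5.38% in either direction) and 13% of the 123 tested genes with counts in every sample. In 0 of the 6 genes were the groups separated without overlap, against 0.13% of the genes tested. The median log2 fold change of the 6 genes was 1.27 in the edgeR fit and that of all tested genes was -0.30, with 44.0% of them positive. By relative abundance the median difference was 1.90 for the 6 genes, 0.01 for all genes tested and 0.35 for those counted in every sample. The 6 genes come from the same hearts and the same precursor RNAs and are not independent of each other.

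Mutant 2 held the most counts on each of the 6 genes, and without it the log2 fold changes were 0.74 for mt-co1, 0.80 for mt-co2, 0.44 for mt-co3, 0.31 for mt-cyb, 1.01 for mt-atp6 and -0.42 for mt-atp8. Without control 8, the differences in log2 relative abundance were 1.22 for mt-co1, 2.69 for mt-co2, 1.53 for mt-co3, 0.93 for mt-cyb, 2.61 for mt-atp6 (exact permutation p = 0.0433, adjusted p = 0.822) and -0.62 for mt-atp8.

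The median log2 fold change of the 6 genes, 1.27 in the main fit, moved most with library sizes unscaled or scaled by upper quartile. Those 2 settings moved it more than leaving out any 1 library did. The medians of 1.16 with RLE scaling, 1.14 with TMMwsp scaling and 1.41 without rn7sl1 were nearer the main fit than the 0.59 without mutant 2. With rn7sl1 left out of the fit, the log2 fold changes were 1.49 for mt-co1, 1.54 for mt-co2, 1.16 for mt-co3, 1.33 for mt-cyb, 2.07 for mt-atp6 and 1.18 for mt-atp8, with adjusted p from 0.660 to 0.997 by edgeR. With library sizes unscaled, the median over the 6 genes was -0.06 while that of all tested genes was -1.51, and mt-co3, mt-cyb and mt-atp8 became negative, at -0.33, -0.13 and -0.48. Upper-quartile scaling gave a median of 3.50 for the 6 genes and 0.39 for all tested genes. Under each of these scalings the median of the 6 genes stood above that of all tested genes, and 0 of the 6 passed the adjusted threshold.

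**Figure D2:**
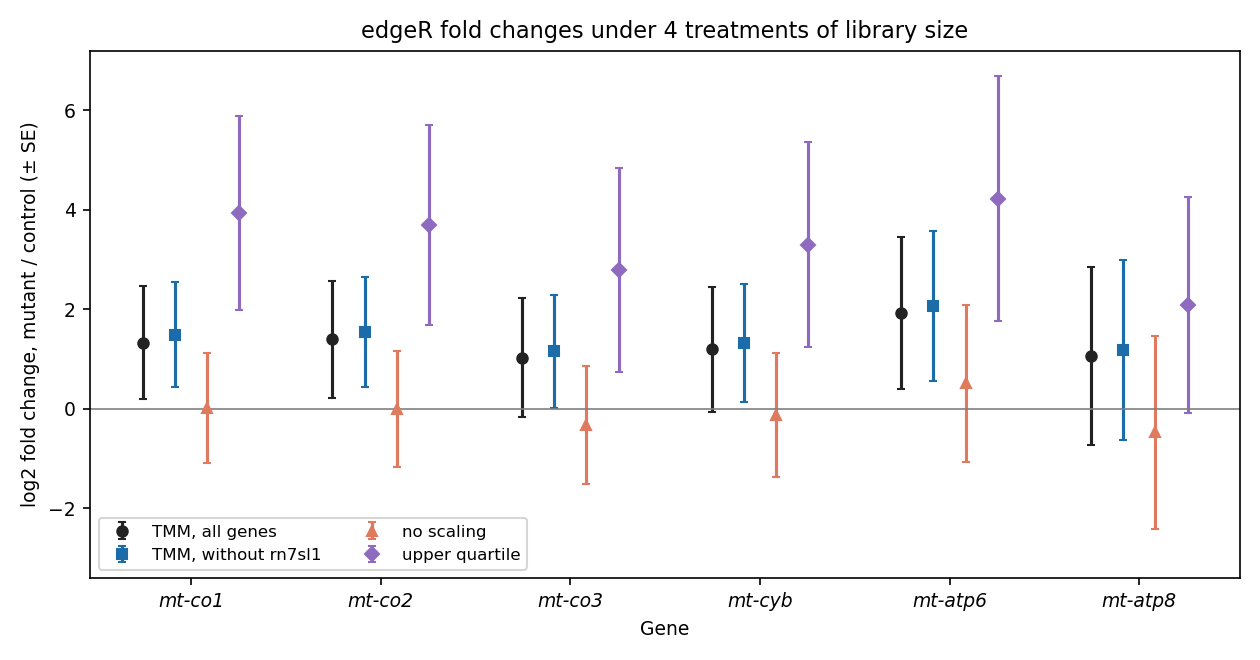
Log2 fold changes of the 6 genes (mutant over control, symbols) with their SE (bars) in edgeR fits of 13 ventricles under 4 treatments of library size. Values without scaling lie around 0 and those with upper-quartile scaling between 2.09 and 4.22, and none of the 24 passed an adjusted p under 0.05.

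The make-up of the counts among the 6 genes was also compared, since it does not depend on rn7sl1 or on scaling. In mutants, mt-co1 took a median of 32.9% (29.7% to 38.5%), mt-co2 25.1% (12.5% to 29.7%), mt-co3 20.3% (13% to 27.9%), mt-cyb 16.7% (9.88% to 20.9%) and mt-atp6 4.05% (2.78% to 10.5%). In controls the medians were 30.6% (17.4% to 54.3%), 22.1% (0.952% to 31.1%), 25.2% (1.27% to 41.4%), 22.6% (13.1% to 42.9%) and 0.995% (0.317% to 5.16%) in the same order. These shares are of counts and not per length, so they do not rank the genes by level. The share of mt-atp8 had medians of 0.300% in mutants and 0.852% in controls. The median share was thus larger in mutants for mt-co1, mt-co2 and mt-atp6 and larger in controls for mt-co3, mt-cyb and mt-atp8, and in each gene the groups overlapped. Per mt-co1 count, mutants had 0.0790 to 0.352 mt-atp6 counts (median 0.117) and controls 0.00585 to 0.185 (median 0.0571). These ratios were read after the values were seen and were not tested.

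**Figure D3:**
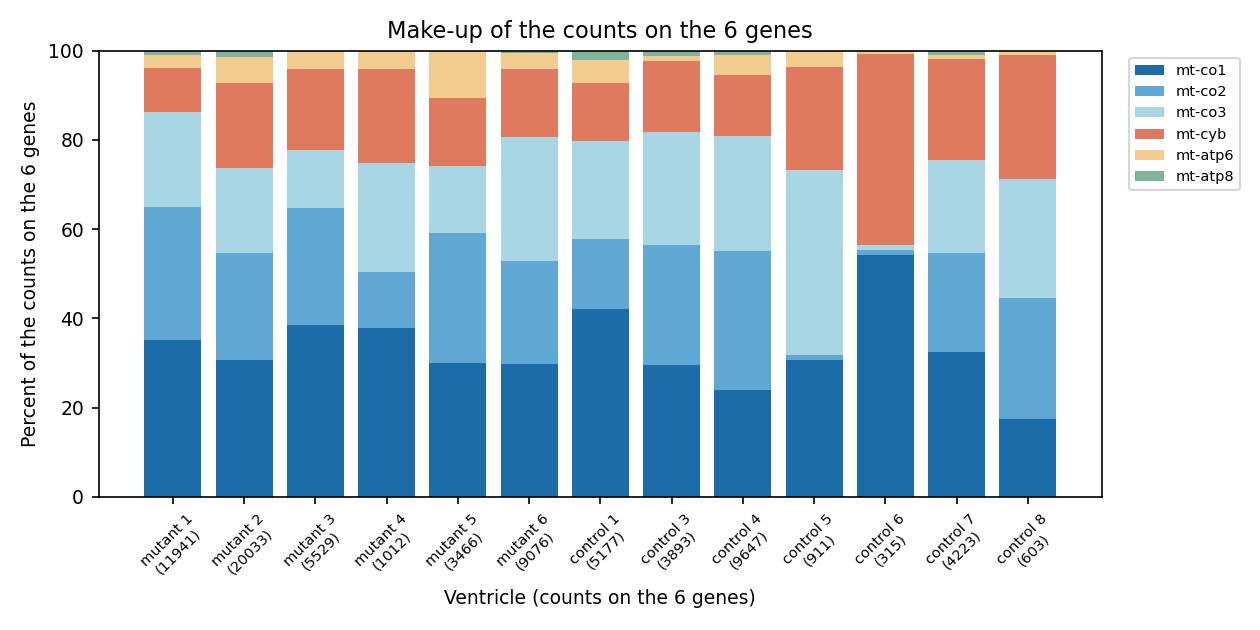
Percent of the counts on the 6 genes taken by each gene in every ventricle, with the summed counts in brackets. Control 6 stands out, with 2.86% of its 315 counts on mt-co2, mt-atp8, mt-atp6 and mt-co3 together, against 41.3% to 62.3% in the other 12 ventricles.

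Control 6 differed from every other ventricle in this make-up. In the RefSeq annotation of the assembly GRCz12tu, used here for gene order only, mt-co2, mt-atp8, mt-atp6 and mt-co3 follow one another after mt-co1, parted from it by transfer RNA genes, and mt-cyb lies farther on. The 4 genes of this run took 41.3% to 55.1% of the 6-gene counts in mutants and 44.9% to 62.3% in the other controls, but 9 of 315 counts (2.86%) in control 6, with the remaining 306 counts on mt-co1 and mt-cyb. In control 5, 11 of its 911 counts fell on mt-co2 (1.21%) and 1 on mt-atp8 (0.110%), against 3.51% on mt-atp6 and 41.4% on mt-co3. A relation to the pattern of control 6 was not tested. In control 6 the relative abundance was 1.17 for mt-co2, 1.56 for mt-co3 and 0.389 for mt-atp6, while its mt-cyb value of 52.6 was above that of controls 5 and 8. Low values also occurred in other controls, with mt-co2 at 2.17 in control 5 and mt-atp6 at 0.561 in control 8. The cause of these low values was not tested. In that annotation mt-atp8 overlaps mt-atp6, and mt-atp6 overlaps mt-co3, so the counts of these neighbours are uncertain where reads fall in the overlaps.

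Across the 13 ventricles the 6 genes rose and fell together. The 15 pairs of their log2 relative abundances had Pearson r from 0.616 for mt-atp6 with mt-atp8 to 0.969 for mt-co1 with mt-cyb, with a median of 0.831. These values are a description over 13 libraries that share a denominator within each library. Among 118 other genes with counts in every sample, those whose log2 relative abundance followed that of the 6 genes most closely were rmrp, the RNA of RNase MRP (r = 0.883), slc25a5, an ADP/ATP carrier of the inner mitochondrial membrane (r = 0.877), ENSDARG00000080337, a gene left unnamed by the reference tables (r = 0.869), ttn (ENSDARG00000028213), the giant sarcomere protein titin (r = 0.861), and rplp0, a ribosomal protein (r = 0.856). The median r over the 118 genes was 0.26. Without control 8 the r of the 5 named genes were 0.817, 0.854, 0.780, 0.828 and 0.755. Within mutants they were 0.547, 0.956, 0.613, 0.798 and 0.864, and within controls 0.938, 0.805, 0.885, 0.844 and 0.807. The 118 genes included the 3 mitochondrial complex I genes with counts in every sample, which were not among the 5. The edgeR log2 fold change of slc25a5 was 1.54 (SE 1.32, adjusted p = 0.852) and that of ttn 1.68 (SE 1.17, adjusted p = 0.657). In the same order, the log2 differences of the 5 genes in relative abundance were 1.06, 2.21, 1.40, 1.94 and 2.07. Their unadjusted exact permutation p were 0.202, 0.0571, 0.0169, 0.0455 and 0.0344. These genes were picked for following the 6 genes, so their differences are not independent of those of the 6.

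The summed cardiomyocyte markers had a higher median relative abundance in mutants, as 5 of the 6 genes did, but by this measure single markers differed in direction. Of 12 marker symbols 7 were matched and 6 tested, and 0 passed the adjusted edgeR threshold. By edgeR the log2 fold changes of all 6 tested markers were positive (median 1.18), as were those of the 6 genes (median 1.27). Of all genes tested, 44.0% were positive. At an unadjusted edgeR p under 0.05, 1 of the markers was higher in mutants. Of all 6138 genes tested, 362 were higher at that threshold (15.2% in either direction). Their summed relative abundance was 166 to 743 in mutants (median 579) and 33.6 to 274 in controls (median 148). The groups did not overlap in actc1a, at 44.6 to 349 in mutants against 0 to 33.1 in controls, and did in myh7, at 94.6 to 312 against 0.791 to 132. Of all genes tested, 0.13% had groups without overlap. The log2 difference in relative abundance was positive for 4 of the 6 markers tested, with 4.55 for actc1a, 2.51 for myh7, 3.51 for the myosin light chain cmlc1 and 2.12 for the myoglobin mb. It was negative for the other two, at -0.32 for myl7 (medians 30.8 in mutants and 24.1 in controls) and -1.14 for the tropomyosin tpm4a (medians 9.96 and 22.9). At an unadjusted p under 0.05 by the exact permutation test, 3 of the 6 were higher and 0 lower in mutants. Of all genes tested, 3.7% were higher at that threshold, as were 13% of the 123 with counts in every sample. The adjusted p by this test was 0.854 for actc1a and for myh7 and 0.912 for cmlc1. Per marker count, the 6 genes had 2.91 to 6.64 counts in mutants (median 3.45) and 0.827 to 9.05 counts in controls (median 5.96). Expressed per marker count, the log2 difference between mutants and controls was 0.01 for mt-co1 (p = 0.988), 1.1 for mt-co2 (p = 0.448), 0.08 for mt-co3 (p = 0.983), -0.49 for mt-cyb (p = 0.276), 1.37 for mt-atp6 (p = 0.244) and -1.52 for mt-atp8 (p = 0.334), each by the exact permutation test. This denominator was added after seeing the data. Over all samples, 6560 of its counts fell on myh7 and 4560 on actc1a, both with higher medians in mutants. The part of the cardiomyocyte share in the values above was not tested.

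**Figure D4:**
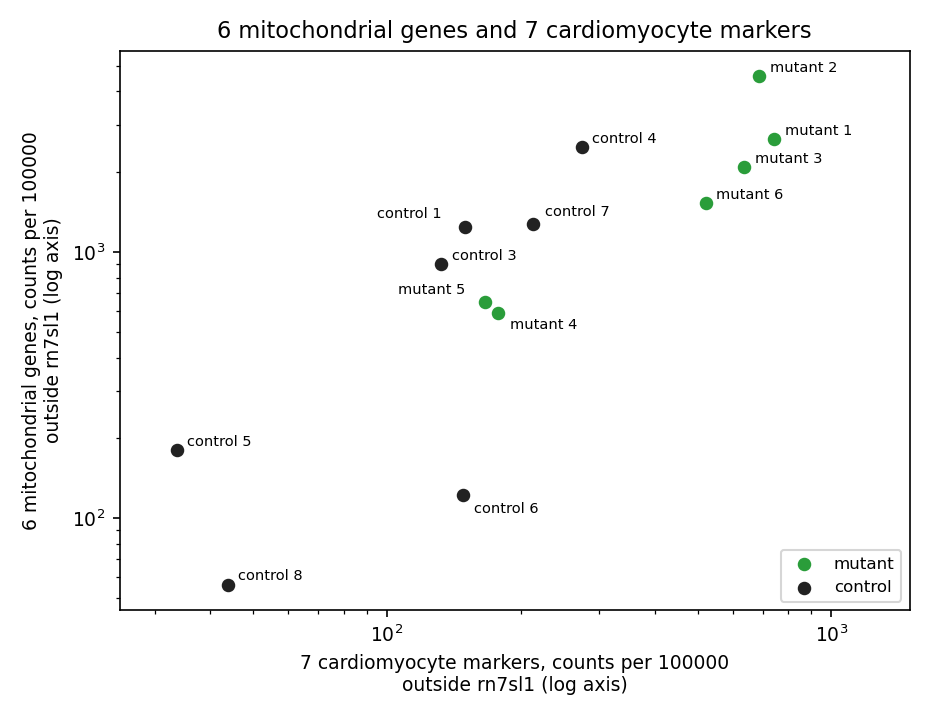
Summed relative abundance of the 6 mitochondrial genes (vertical) against that of 7 cardiomyocyte markers (horizontal), in counts per 100000 counts outside rn7sl1, both on log axes, with 1 point for each ventricle. Mutants 1, 2, 3 and 6 lie to the right of every control, at 522 to 743 for the markers, while mutants 4 and 5 lie among the controls at 178 and 166.

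Among markers of other cells, the medians of the summed relative abundance were below those of the cardiomyocyte markers, although single libraries were not always. The 5 matched skeletal muscle markers of 7 summed to 0 to 262 in mutants (median 138) and 1.95 to 88.8 in controls (median 21.0), with the creatine kinase ckma, which heart muscle may also express, at medians of 138 and 3.34. In the same list the actin actc1b lay the other way, with medians of 0.195 in mutants and 14.1 in controls, a log2 fold change of -4.42 (SE 2.18, adjusted p = 0.296 by edgeR) and a log2 difference in relative abundance of -3.76 (exact permutation p = 0.0227, adjusted p = 0.912). The myosin myhz2 was counted in mutant 3 alone. The 3 matched erythroid markers of 6 summed to 0 to 63.1 in mutants and 0 to 1.12 in controls, with the globin hbaa1 counted in 3 mutants and 0 controls and the haem synthesis enzyme alas2 at 1 count in all. The 4 matched fibroblast and epicardial markers of 8 summed to 26.5 to 54.5 and 14.4 to 71.2, with the epicardial factor tcf21 at 0 in every sample, and the 4 matched leukocyte markers of 6 to 0 to 18.6 and 0 to 35.0. The lymphatic endothelial marker lyve1b, the 1 matched of 2, was counted in 2 mutants and 5 controls, at 0 to 498 in mutants (median 0) and 0 to 55.3 in controls (median 14.8), with 1326 of its 1990 counts in mutant 3, where the cardiomyocyte markers summed to 636. The 2 matched smooth muscle markers of 3 summed to 0 to 89.7 in mutants (median 36.2) and 0 to 185 in controls (median 17.05), the 3 matched endothelial markers of 5 to 0 to 37.5 and 0.0934 to 13.1, and the 2 matched atrial markers to 0 to 77.7 and 0 to 38.2. The part of these cells in the mitochondrial values was not tested.

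The nuclear partners of the 6 genes were sparsely counted. Of the nuclear subunits, 2 of 8 matched genes of complex III, 8 of 22 of complex IV and 9 of 17 of complex V were tested. By edgeR, 0 of these 19 passed the adjusted threshold. At an unadjusted p under 0.05, 0, 3 and 2 were higher in mutants and 0 lower. Of all 6138 genes tested, 362 were higher and 571 lower at that threshold (15.2% in either direction). The median log2 fold changes were -1.03 for complex III, 2.90 for complex IV and 1.46 for complex V, and the median matched gene was counted in 2, 1 and 3 of the 13 samples. Summed relative abundance had medians of 23.7 in mutants and 25.2 in controls for complex III, 88.2 and 10.9 for complex IV, and 278 and 149 for complex V, with overlapping ranges in each.

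Of the nuclear genes with the most counts, the Rieske iron-sulphur protein gene uqcrfs1 of complex III had a log2 fold change of -0.49 (SE 1.81, adjusted p = 0.9999 by edgeR), and cyc1 (cytochrome c1) and uqcrc1 (a core protein) were each counted in 3 samples. For complex IV, ndufa4b was counted in 6 of 6 mutants (11.2 to 27.6) and in 2 of 7 controls, in 1 of which it reached 66.7. Its edgeR log2 fold change was 0.68 (SE 1.79, adjusted p = 0.9999), and its log2 difference in relative abundance was 5.35 (exact permutation p = 0.0111, adjusted p = 0.894), a value that rests on 0 counts in 5 controls. The subunit genes cox5b and cox7b were each counted in 3 samples. For complex V, the catalytic core genes atp5f1a and atp5f1b had log2 fold changes of -0.26 (SE 1.48) and 0.31 (SE 1.60), and the stalk subunit gene atp5po one of 2.18 (SE 1.68) with 952 of its 1577 counts in mutant 3.

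Genes that express the mitochondrial genome had values of either sign. Of 12 such genes 7 were tested, with a median log2 fold change of -0.29 and 0 past the adjusted edgeR threshold. At an unadjusted edgeR p under 0.05, 1 was lower in mutants, against 571 of all 6138 genes tested (15.2% in either direction). The mitochondrial RNA polymerase gene polrmt had a log2 fold change of -0.29 (SE 2.00, adjusted p = 0.9999 by edgeR), and the coactivator gene ppargc1a was counted in 3 samples. The transcription elongation factor gene tefm was counted at 38.5 to 260 in mutants (median 109) and 0 to 97.6 in controls (median 9.44), with a log2 fold change of 2.52 (SE 1.54, adjusted p = 0.515 by edgeR) and a log2 difference in relative abundance of 5.03 (exact permutation p = 0.00991, adjusted p = 0.856). Of 13 complex IV assembly genes, 6 had any count and 3 were tested. Of these, cox15, needed for the haem of complex IV, had a log2 fold change of 1.86 (SE 1.86, adjusted p = 0.951 by edgeR), cox18 one of -1.58 (SE 2.29, adjusted p = 0.9999), and all 141 counts of the copper chaperone gene cox11 were in mutant 3.

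The 7 complex I genes of the same genome had positive fold changes as well. All 7 were tested, 0 passed the adjusted edgeR threshold, and their log2 fold changes were 0.57 to 2.90 with a median of 1.49, against 1.03 to 1.93 and a median of 1.27 for the 6 genes. By relative abundance their median difference was 3.01, against 1.90, and 1 of the 7, mt-nd1, had an unadjusted p under 0.05 (exact permutation p = 0.0163, adjusted p = 0.910). The 3.01 is the value of mt-nd6, with 361 counts in all and a control median of 0.240. Control medians were also low for mt-nd2 (0.989) and mt-nd4l (0), where the added 0.5 count weighs most. Of the 7 genes 3 had counts in every sample, against 5 of the 6 genes, so the 2 medians are not alike in footing. Of all genes tested, 3.7% were higher in mutants at that threshold. For each count on a complex I gene there were 0.664 to 3.56 counts on the 6 genes in mutants (median 2.61) and 1.47 to 2.94 in controls (median 2.20), ranges that overlapped. Mutant 4 had the lowest ratio, the only one below 1. The names of the mitochondrial ribosomal RNAs were not matched, and these RNAs were not analysed here.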

How the data were processed

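The deposited table holds read counts per gene in 13 fixed ventricle samples. According to the study's methods and the labels, the authors trimmed reads with Skewer 0.2.2, aligned them to GRCz11 with BWA 0.7.17 and counted them with featureCounts 1.5.0 on the correct strand at a mapping quality of at least 20, without normalization. Copies of mitochondrial sequence in the nuclear genome were not checked for. All 13 columns were used.

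Genes averaging 10 or more counts per sample were compared between 6 mutants and 7 controls with edgeR 4.0.16 (R 4.3.3), quasi-likelihood test, TMM and Benjamini-Hochberg adjustment over all 6138 genes. The SE is the absolute log2 fold change divided by the square root of F. Relative abundance was tested on log2 of (count + 0.5) per 1000000 counts outside rn7sl1 by exact two-sided permutation over all splits into 6 and 7 (smallest p 0.00117), adjusted over the same genes. The main edgeR fit and the permutation test were tried on simulated data, and the alternative fits were not. The simulated data had a set spread in place of that of these libraries, so they do not show how the tests perform here. Symbols were matched through the reference name table (29201 named genes).

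The genes named are the 6 genes, the 3 matched genes with the most counts in each pathway list, and the 5 genes closest in pattern. Members and lists were chosen with earlier results of these data known. Other named markers were chosen after their values were seen. Alternatives used other scalings, filters, tests (DESeq2 1.42.0, limma 3.58.1), denominators, pseudocounts of 0.1 and 2, and left out each sample. Replicate numbers shared by mutants and controls belong to different fish, and whether they pair the samples is not known. The main tests therefore used no block, and a block was tried as an alternative. Each p-value sets the difference between the groups against variation between these hearts, which edgeR estimates in part across all genes.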

Additional observations from a re-analysis of the deposited data

Results flagged for a closer look

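In 5 of 14 comparisons of 1 sample with the others of its group, a sample lay farther off than Dixon's 95% critical value allows. For normally distributed values chance gives about 1 in 20 groups, or 0.7 of 14. The values were compared without a log transform and their distribution was not tested, so 0.7 may be too low here. The measures are not independent, since they come from the same libraries. Control 4 was high in relative abundance (counts per 100000 counts outside rn7sl1) for mt-co2, at 770 against 280 in the next control, a gap of 0.637 of the control range, and for mt-co3, at 640.2 against 274, a gap of 0.574. Mutant 2 was high for mt-cyb, at 869 against 379.5 in the next mutant, a gap of 0.635 of the mutant range, and for mt-atp6, at 266 against 81.8, a gap of 0.763. In control 6, the share of the 6-gene counts on mt-co2, mt-atp8, mt-atp6 and mt-co3 was 2.86% against 44.9% in the next control, a gap of 0.707 of the control range. This share was computed after the values of control 6 had been seen. The causes were not tested.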

How the results depend on the processing

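None of the 6 genes passed the adjusted edgeR threshold under any of 29 alternatives, so none of their signs there is a called direction. The median log2 fold change of the 6 genes, 1.27 in the edgeR fit, was 3.50 with upper-quartile scaling and 0.59 to 1.56 with 1 sample left out, lowest without mutant 2. Over all genes tested the number called by edgeR, 6, was 87 with upper-quartile scaling, 14 with no scaling, 142 by DESeq2, 3 with the robust fit, 2 with no filter, 2 with filterByExpr, 1 with the likelihood ratio test, 1 without rn7sl1 and unscaled, and 2 to 7 with 1 sample left out. By relative abundance, the 1 of 6 genes with an unadjusted p under 0.05, mt-atp6, became 0 with shares of all counts and with plain in place of log shares, 0 without mutant 2 and 2 without control 4. All genes at that threshold, in either direction, numbered 330. They numbered 1043 with shares of all counts, 253 with plain shares, 319 without mutant 2 and 267 without control 4.

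Signs turned as follows. Without scaling, mt-co3 was -0.33, mt-cyb -0.13 and mt-atp8 -0.48. With shares of all counts, mt-cyb was -0.19 and mt-atp8 -1.22. Per cardiomyocyte marker count, added after seeing the data, mt-cyb was -0.49 and mt-atp8 -1.52. For mt-atp8, voom gave -0.21, and leaving out 1 sample gave -0.42 to 1.61 for the fold change and -0.62 to 1.35 for the log2 difference in relative abundance, negative without mutant 1 (-0.28), mutant 2 (-0.54), control 5 (-0.18), control 6 (-0.02) or control 8 (-0.62). The cause of these turns was not tested beyond the change each setting makes.

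With replicate number as a block over the 5 shared numbers, 1 gene was called over the whole table, against 3 in the same samples without the block, which was added after seeing the data, and mt-atp8 was -1.75, against -0.55. The blocked relative abundance of mt-atp8 differed by -1.26, with 0.0625 the smallest p that 5 pairs can give. Deviations from the group means in same-numbered samples had correlations of -0.0511 to 0.0982. Of the 5 mutants, 2 correlated best with the control of their own number, and 2 of the controls with the mutant of theirs. With 5 pairs these values cannot decide whether the numbers pair the samples. The block left 0 of the 6 genes called by edgeR. Counts were fewest for mt-atp8, with 735 over 13 samples. Mutant 4, with 171218 counts outside rn7sl1, and mutant 5, with 536159, both held 0 of them. Why mt-atp8 had so few counts was not tested.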
